A study of Caenorhabditis elegans with 12 samples.

Results

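Splicing in wild-type Caenorhabditis elegans at the L3 larval stage was described from 6 of the 12 libraries of a study of the splicing helicases SACY-1 and MOG-5. The 6 libraries were all those made from the wild-type strain N2. They form 2 sets of 3, named az02 and az04 after their library codes. Of 7886 splicing events listed in any of the 12 libraries, 7503 were listed in all 6 wild-type libraries and were kept. Each event pairs an included form with an excluded form, and its use is the included score as a percentage of both scores. All worms were raised at 20 °C on agar plates with E. coli OP50, and whole larvae were taken 34 h after embryos were isolated by bleaching. Ribosomal RNA was removed from total RNA before paired sequencing at 150 nt. The other 6 libraries, used here only for a side-by-side view, came from sacy-1(tn1385) larvae (az024 to az026) and mog-5(az192) larvae (az044 to az046). The study set each mutant against N2, and the shared code stem links sacy-1(tn1385) with set az02 and mog-5(az192) with set az04. The labels do not say that libraries of a set came from separate cultures, so each p-value speaks only to the variation among libraries, possibly technical. The files hold splicing scores and no expression levels, so the labelled stage was not checked against marker genes, and the read depth behind each score is unknown.

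The spliceosome cuts an intron between a donor site at its upstream end and an acceptor site at its downstream end. Where candidate acceptors or donors lie close together, the same intron can end at either, and the protein gains or loses a few residues or is put out of frame. C. elegans introns are often very short, and its genes are rich in acceptors that lie a few nucleotides apart. Choice between such neighbouring acceptors is known to differ between the germ line and the soma of the worm. Other kinds of event skip an exon, choose between exons that exclude each other, keep an intron in the mRNA, or start or end the transcript at another exon. The RNA helicase PRP22, called MOG-5 in the worm, releases the spliced mRNA from the spliceosome and takes part in proofreading the acceptor, and SACY-1 is the worm form of the spliceosomal helicase DDX41.

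Alternative acceptors made up the largest type, with 3385 events at 2830 separate loci. For these the included form used the upstream acceptor, which gives the shorter intron. The events also comprised 1713 alternative donors, 783 retained introns, 573 single skipped exons, 552 alternative first exons, 276 alternative last exons, 155 groups of exons skipped together and 66 pairs of mutually exclusive exons. Many scores stood at the ends of the scale. In az021, az022 and az023, 1092, 779 and 1033 of the 5098 acceptor and donor events had a use of 0.1%, a value that recurs at the low end. The 3 az04 libraries had 724, 518 and 551 such events. The az02 set thus had more events at the bottom of the scale in every library. The matching value at the high end, called the top of the scale here, lies 0.1 points below 100%, and a few values lay beyond either one. What these values stand for is not given in the sources used here. Events at or beyond either end in at least 1 library made up 53.7% of the acceptor and donor events and 38.7% of the other types.

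In wild-type larvae, most alternative acceptors used mainly the downstream site. Mean use of the upstream acceptor over events was 34.1% ± 1.43 (SD over 6 libraries), and the median event stood at 14.9%. Upstream use was at most 5% in 1226 events and at least 95% in 525, with 1126 in the range over 5 to 50% and 508 over 50 and under 95%. Alternative donors were balanced in comparison. The form with the shorter intron had a mean use of 50.3% ± 0.12 (SD, n = 6), with 402 donors at or below 5% and 458 at or above 95%.

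Upstream acceptor use depended on the distance between the acceptors, and the course was a step down beyond 4 nt followed by a rise from 10 nt on. The upstream site was favoured at 1 nt (80.2% ± 1.0, SD over the 6 libraries, 52 events), 2 nt (70.6%, 45 events), 3 nt (72.2% ± 0.52, 231 events) and 4 nt (76.5% ± 2.37, 46 events). At 5 nt it fell to a mean of 34.0% ± 0.67 over 75 events. The most frequent distance, 6 nt with 783 events, had a mean upstream use of 27.1% ± 2.85, and 7 nt, with 285 events, 18.8% ± 1.5. The lowest mean was at 10 nt, at 12.4% ± 0.28 over 129 events, where the median event used the upstream site at 0.9%. Upstream use then lay between 22.3% at 11 nt and 32.2% at 15 nt, except that 18 nt stood at 46.1% ± 2.48 over 44 events. Acceptors 19 nt or more apart used the upstream site at 56.9% ± 0.87 over 412 events.

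Reading frame divided these acceptors by how often both sites were in use. Among events 1 to 18 nt apart, 1917 had a distance divisible by 3, which keeps the frame, and their median upstream use was 17.0%. The 1056 events that shift the frame had a median of 3.7%. Their means were closer, at 32.5% ± 2.13 and 28.2% ± 0.83, and the frame-shifting group also held events almost wholly on the upstream site, as at 1 nt, where the median event stood at 99%. Intron size went with acceptor choice as well. Where the upstream acceptor would leave an intron of 44 nt or less, its mean use was 19.9% ± 2.01 over 841 events. For introns of 45 to 49 nt it was 38.8% ± 1.60, and for 50 to 59 nt 43.1% ± 1.60. The very short introns thus lay lowest of all 6 size groups in each library.

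Donor choice followed another course with distance. The donor that gives the shorter intron was favoured at 1 nt (76.4% ± 1.11, 52 events), 2 nt (65.4% ± 0.82, 84 events) and 3 nt (64.8% ± 0.91, 88 events). At 4 nt, the most frequent donor distance with 277 events, its mean use was 34.2% ± 0.45, and the median event used it at 9.2%. Use returned to 53.3% ± 0.77 at 6 nt over 99 events and fell again to 29.4% ± 1.64 at 10 nt over 30 events. Beyond those distances the donor means lay between 41.4% at 5 nt and 68.2% at 16 nt.

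**Figure D1:**
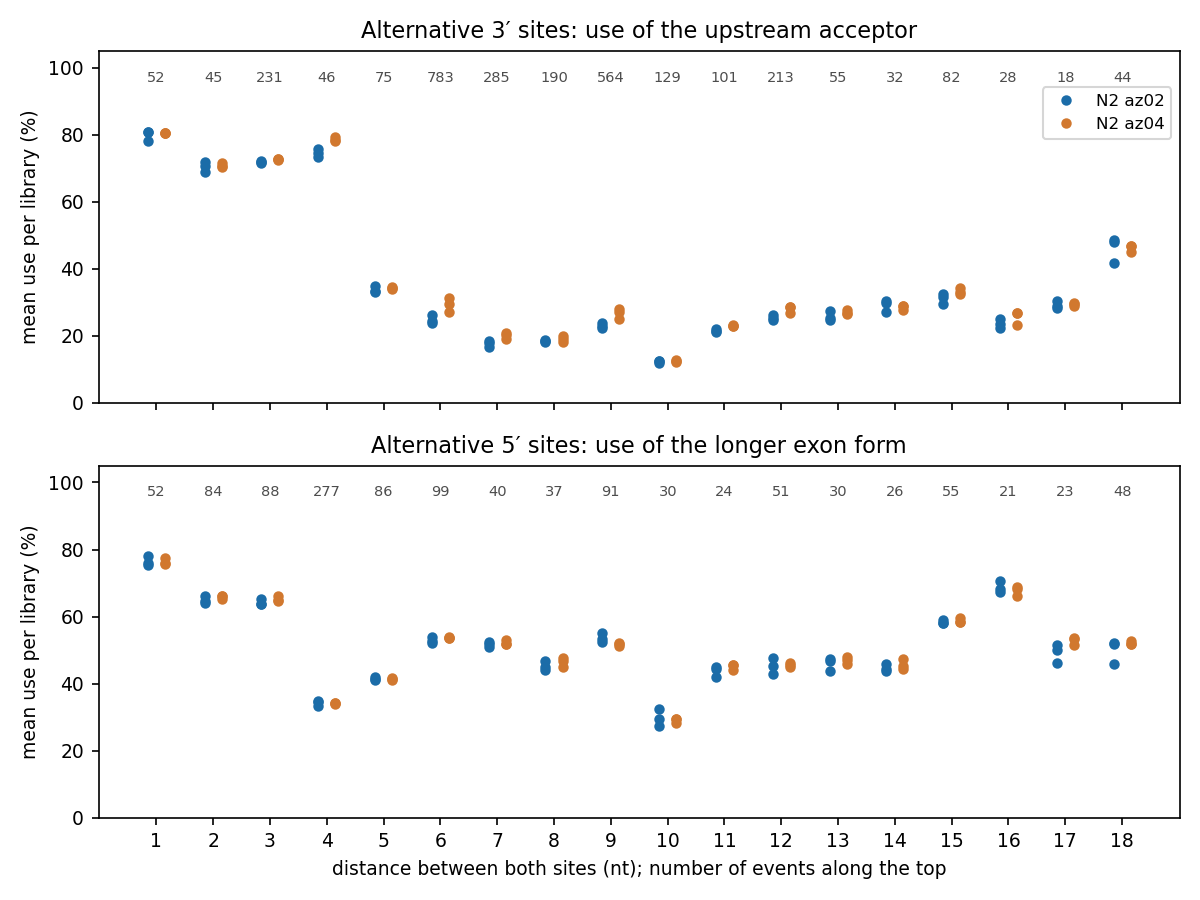
Mean use in each of the 6 wild-type libraries (y axis, %) against the distance between the alternative sites (x axis, nt), for acceptors in the upper panel and donors in the lower, with az02 in blue and az04 in orange and event counts along the top. Upstream acceptor use steps from 76.5% at 4 nt to 34.0% at 5 nt, and at 6 and 9 nt all 3 az04 points lie above all 3 az02 points.

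The types that change whole exons or introns were described in the same libraries. Single skipped exons were included at a mean of 50.98% ± 0.18 (SD, n = 6), and groups of exons skipped together at 66.8% ± 0.26. Inclusion rose with exon length up to 250 nt. Microexons of 27 nt or less, of which 38 of 39 had a length divisible by 3, had a mean inclusion of 34.9% ± 1.63. Exons of 28 to 60 nt had 37.8% ± 0.66, those of 61 to 120 nt 50.4% ± 0.25 and those over 120 and up to 250 nt 61.8% ± 0.44. Longer exons (74) had 57.3% ± 1.35, below the group before them. The order of these 5 size groups was the same in all 6 libraries. The 431 exons that keep the frame had a mean inclusion of 49.5% ± 0.28, against 55.6% ± 0.36 for the 142 that shift it. Without exons at either end of the scale these means were 45.06% and 45.6%, close to each other. Of the skipped exons, 35.8% had values within 5 points of each other in all 6 libraries.

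Introns listed as retained covered the whole range of use. Of 783, 120 were retained at 5% or less on average and 286 at 95% or more, and 202 (25.8%) stood at 99.8% or more in each of the 6 libraries. Length separated them most at the short end. The 59 introns under 40 nt, the shortest of 20 nt, had a mean retention of 99.6% ± 0.17, so removal of such short stretches was hardly seen. The next group, 40 to 45 nt, had 50.4% ± 0.39, and introns of 46 to 50 nt, a usual size in this worm, had the lowest mean at 32.5% ± 0.29. Retention was then 43.9% ± 0.79 at 51 to 59 nt, 56.3% ± 0.59 at 60 to 100 nt, 65.0% ± 0.37 over 100 and up to 200 nt, and 45% ± 0.52 in longer introns. Without introns that had a value at either end in any library, mean retention over the rest was 30.6%, against 53.5% ± 0.33 over all 783.

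First and last exons and mutually exclusive exons completed the picture. The included first exon had a mean use of 61.2% ± 0.50 over 552 events, with 77 events at or below 5% and 160 at or above 95%. Where the competing first exons overlapped (135 events), mean use was 75.2% ± 0.36 and the median 99.5%. Separate first exons (417 events) had a mean of 56.7% ± 0.62. Last exons had a mean use of 55.5% ± 0.33. Mutually exclusive exons were the most mixed type, since 25 of 66 pairs had a mean use over 5 to 50% and 32 over 50 and under 95%.

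**Figure D2:**
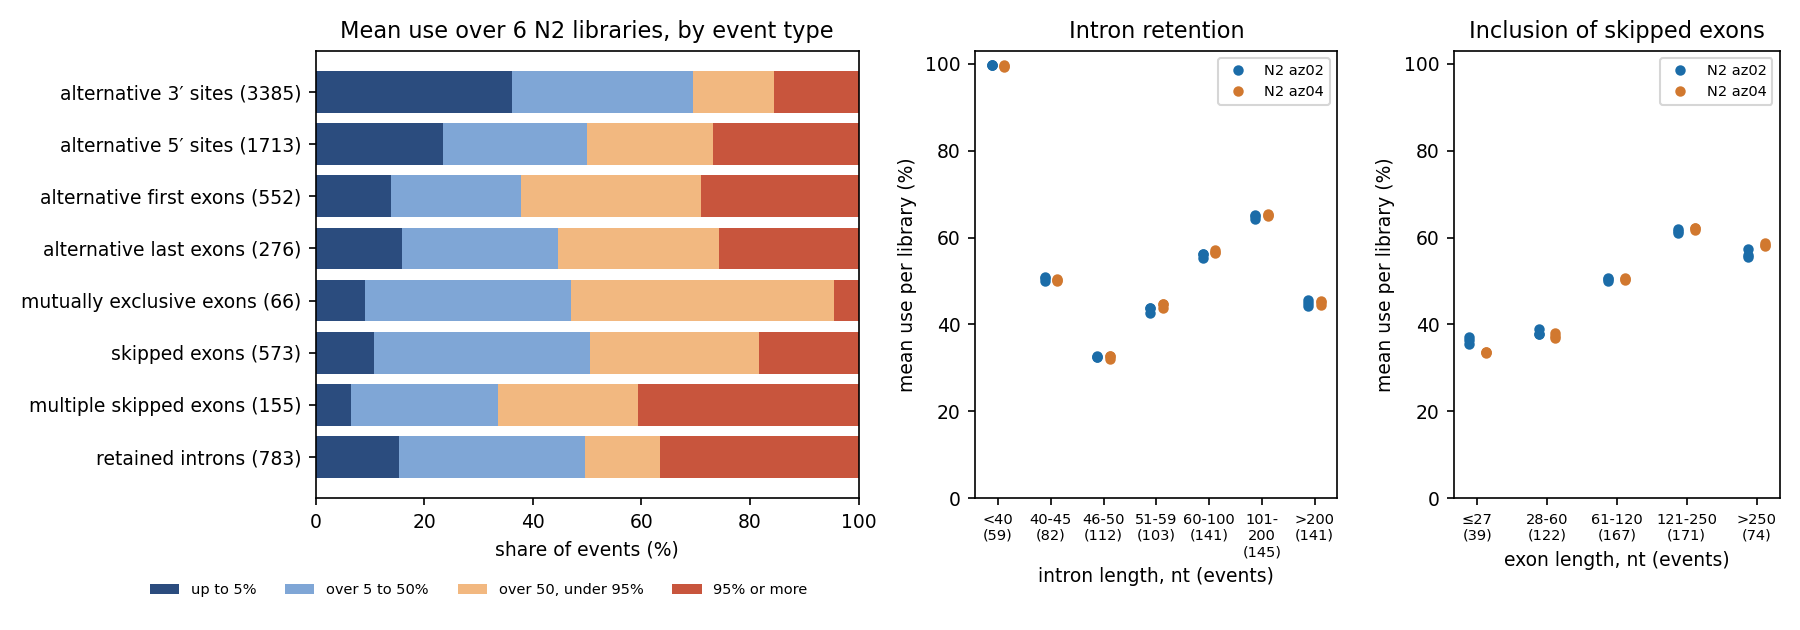
Left, the share of events of each type (x axis, %) by mean use over the 6 wild-type libraries, with event numbers in brackets. Middle and right, mean retention by intron length and mean inclusion by exon length (y axis, %), 1 point per library, az02 in blue and az04 in orange. Introns under 40 nt lie at 99.6% in the mean and introns of 46 to 50 nt at 32.5%.

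Some events used both forms evenly and hardly varied, and show how closely the 6 libraries can agree. The events given here are those with a mean use of 40 to 60% and the smallest range. A skipped exon of 33 nt on chromosome IV, minus strand, ce10 positions 1419423 to 1419455, was included at 47.73, 47.4 and 48.21% in az021 to az023 and at 47.71, 47.85 and 47.86% in az041 to az043. A pair of mutually exclusive exons on chromosome V, plus strand, both of 113 nt (18499554 to 18499666 and 18500523 to 18500635), gave 54.05, 54.98 and 55.75% in az02 and 55.62, 53.91 and 54.25% in az04. An alternative acceptor with sites 3 nt apart on chromosome I, plus strand, in the interval 4500465 to 4500797, gave 42.91, 45.78 and 44.96% in az02 and 44.29, 43.19 and 44.36% in az04. In each of these the sets overlapped, and the whole range was 0.81, 1.84 and 2.87 points. A retained intron of 52 nt on chromosome IV, plus strand, 12280072 to 12280123, had a mean of 49.2% and a range of 3.49 points. Genes are given by coordinates only, since no annotation of the ce10 build was used here.

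At the other end were events that jumped between the ends of the scale. An acceptor pair 16 nt apart on chromosome V, plus strand, in the interval 6553849 to 6554054, read 0.1% in az021, az022, az023 and az042 and the top of the scale in az041 and az043. A donor pair 5 nt apart on chromosome IV, minus strand, in the interval 16842622 to 16842948, read 0.1% in az021 and az023 and the top of the scale in the other 4 libraries. Such jumps occurred within a set as well as between sets. The mean absolute difference between libraries over acceptor and donor events was 6.92 points within az02, 4.62 within az04 and 6.77 between the sets. For the other types these means were 4.36, 3.14 and 5.0 points. Libraries of set az02 therefore lay further from each other than those of az04. For acceptor and donor events the mean within az02 was close to that between sets, but without events at either end of the scale it was 5.96 points within az02, 4.78 within az04 and 7.03 between sets.

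The second question was whether the wild-type sets differ. The az04 set used upstream acceptors more than az02, in events up to 18 nt apart. For acceptors 1 to 6 nt apart, mean upstream use was 39.4, 41.0 and 39.8% in az021 to az023 and 44.5, 41.8 and 43.3% in az041 to az043. All 3 az04 libraries lay above all 3 az02 libraries, az042 and az022 being closest. The means were 40.1% ± 0.79 and 43.2% ± 1.35 (SD, n = 3 each), a difference of 3.16 points (exact two-sided permutation test, p = 0.10, the smallest that 3 against 3 allows, 0.30 after Benjamini-Hochberg adjustment over 18 classes). At 7 to 18 nt, upstream use was 21.8, 23.0 and 22.1% in az02 and 25.4, 23.4 and 24.9% in az04. Again the sets did not overlap, and the difference was 2.23 points (exact p = 0.10, adjusted 0.30). At 19 nt or more, upstream use was 58.3, 55.7 and 57.1% in az02 and 57.0, 56.3 and 56.6% in az04. Here the sets overlapped, with a difference of -0.37 points (exact p = 0.70). In whole-worm RNA, a change of splicing within cells and a change in the number of cells of a type, or in RNA per cell, cannot be told apart.

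The most frequent distances, 6 and 9 nt, both showed the difference. At 6 nt, upstream use was 23.96, 26.3 and 24.5% in az02 and 31.3, 27.1 and 29.4% in az04, a difference of 4.37 points over 783 events. At 9 nt it was 22.4, 23.9 and 22.8% in az02 and 28.1, 24.9 and 27.2% in az04, a difference of 3.70 points over 564 events. In both, az041 was highest and az021 lowest. At 4 nt the difference was 4.09 points, also without overlap, over 46 events. Distances of 3 nt and 10 nt moved by 0.82 points, without overlap, and 0.25 points, with overlap. The sets also did not overlap at 7, 11, 12 and 15 nt, with differences of 2.26, 1.49, 2.58 and 2.16 points.

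Counts of single events gave the same distribution. Among all acceptor and donor events, 10.7% had an unadjusted p below 0.05 with higher use in az04 and 2.59% with lower use (limma). For alternative acceptors these were 476 higher and 64 lower of 3385. At 6 nt they were 197 higher and 14 lower of 783, at 9 nt 109 and 8 of 564, and at 7 nt 52 and 0 of 285. At 3 nt, 10 were higher and 7 lower of 231. Donors were even, with 67 higher and 68 lower of 1713. After adjustment over all 5098 acceptor and donor events, 4 had a limma adjusted p below 0.05. Of these, 2 also reached the minimum difference set for a call (below). The unadjusted counts therefore describe mainly events that were not called, some of them with large differences (below).

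The size of the difference varied with the mean use of the upstream acceptor and was largest where that site was the minor but regular choice. Among acceptors 1 to 18 nt apart, events with a mean upstream use over 20 and up to 40% (303 events) differed by 8.81 points. In these the libraries read 22.3, 26.1 and 24.2% in az02 and 36.3, 28.9 and 33.9% in az04. The sets did not overlap, az041 being highest and az021 lowest. Events over 5 to 20% (591) differed by 5.31 points and those over 40 to 60% (195) by 5.25. From 60% on the differences were 1.62 points or less. Values at 0.1% were more frequent in az02 among acceptors 1 to 18 nt apart (791, 582 and 770 of 2973) than in az04 (503, 405 and 424). Without any event at either end of the scale the differences were larger, at 4.95 points for 1 to 6 nt and 4.82 points for 7 to 18 nt. The events left differ in makeup from the full groups. Their mean upstream use over the 6 libraries was 34.1% at 7 to 18 nt, against 23.4% over all events. At 1 to 6 nt it was 41.5%, against 41.7%.

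**Figure D3:**
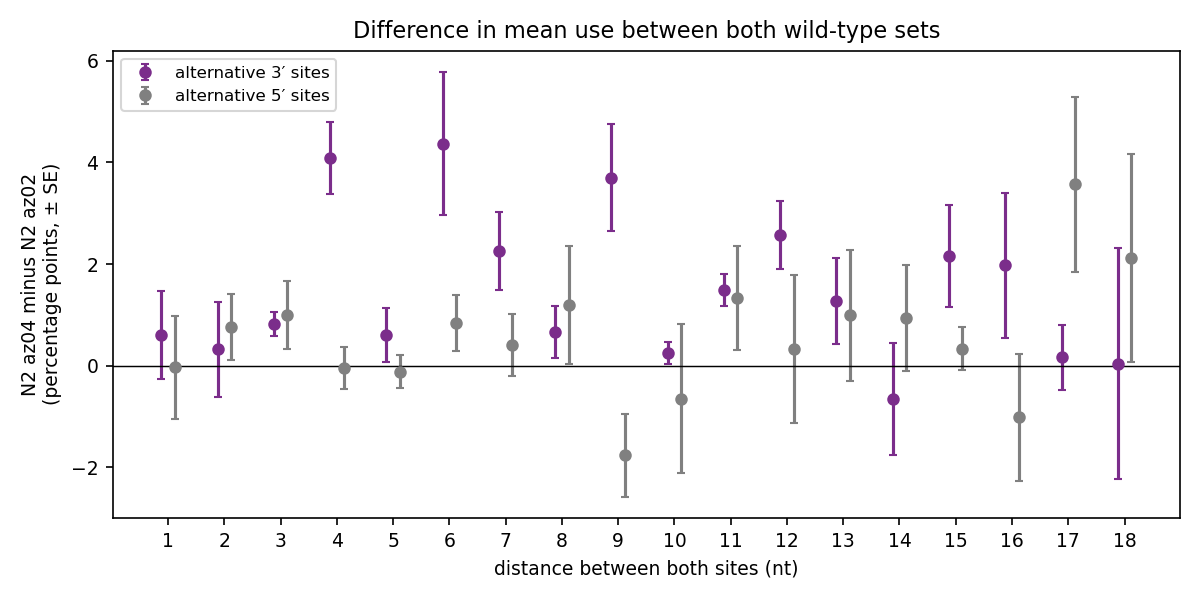
Difference in mean use between the wild-type sets, az04 minus az02, in percentage points (y axis) by the distance between sites (x axis, nt), with acceptors in purple and donors in grey. Bars are standard errors from the SDs of 3 libraries per set. Acceptors at 6 and 9 nt differ by 4.37 and 3.70 points, and donors scatter around 0.

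Donors as a whole, and in each of 3 distance classes, overlapped between the sets. Mean use of the donor with the shorter intron was 50.3, 50.2 and 50.1% in az02 and 50.3, 50.4 and 50.3% in az04. The difference of 0.11 points lay within the overlap of the sets (exact permutation p = 0.40). Means for the near (1 to 6 nt), middle (7 to 18 nt) and far (19 nt or more) donors differed by 0.31, 0.35 and -0.34 points, and each overlapped. Among single distances, donors 9 nt apart (91 events) went from 53.6% ± 1.34 to 51.8% ± 0.41 without overlap, a difference of -1.76 points. The largest donor difference was 3.57 points at 17 nt, over 23 events and with overlap of the sets.

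The chromosome of the event went with the size of the difference, a comparison chosen after the values were seen. For acceptors 1 to 18 nt apart on autosomes (2531 events), upstream use was 28.3, 29.8 and 28.7% in az02 and 33.1, 30.5 and 32.2% in az04, a difference of 2.99 points. On the X chromosome (442 events) it was 33.7, 34.0 and 33.8% in az02 and 34.3, 34.2 and 34.4% in az04, a difference of 0.46 points. The sets did not overlap in either, but all 6 libraries lay close together on X and spread more widely on the autosomes. The difference was 3.79 points on chromosome I, 2.74 on II, 3.83 on III, 2.36 on IV and 2.09 on V. Single acceptors with an unadjusted p below 0.05 (limma) numbered 20 higher (4.52%) and 9 lower (2.04%) on X. On the autosomes they numbered 439 higher (17.3%) and 40 lower (1.58%).

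The contrast itself was tested over libraries. X minus autosomes was 5.36, 4.2 and 5.1 points in az02 and 1.21, 3.67 and 2.19 points in az04. The sets did not overlap and the change was -2.53 points (exact permutation p = 0.10, the smallest possible, 0.17 after adjustment over 5 contrasts). Restricted to events with a mean use over 5 and under 95%, it was 11.4, 9.25 and 11.4 points in az02 and 2.98, 8.40 and 5.55 points in az04, a change of -5.07 (exact p = 0.10, adjusted 0.17). At 6 nt alone the autosomal mean went from 25.0% ± 1.36 to 30.2% ± 2.34 over 657 events, and the X mean from 24.4% ± 0.55 to 24.5% ± 0.98 over 126. That change was -5.03 points (exact p = 0.10, adjusted 0.17). At 9 nt the contrast changed by -3.58 points, with overlap of the sets (exact p = 0.20, adjusted 0.25). For donors 1 to 18 nt apart it changed by -0.22 points (exact p = 0.50). Leaving out any 1 library kept the sign of each of these 5 contrasts.

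**Figure D4:**
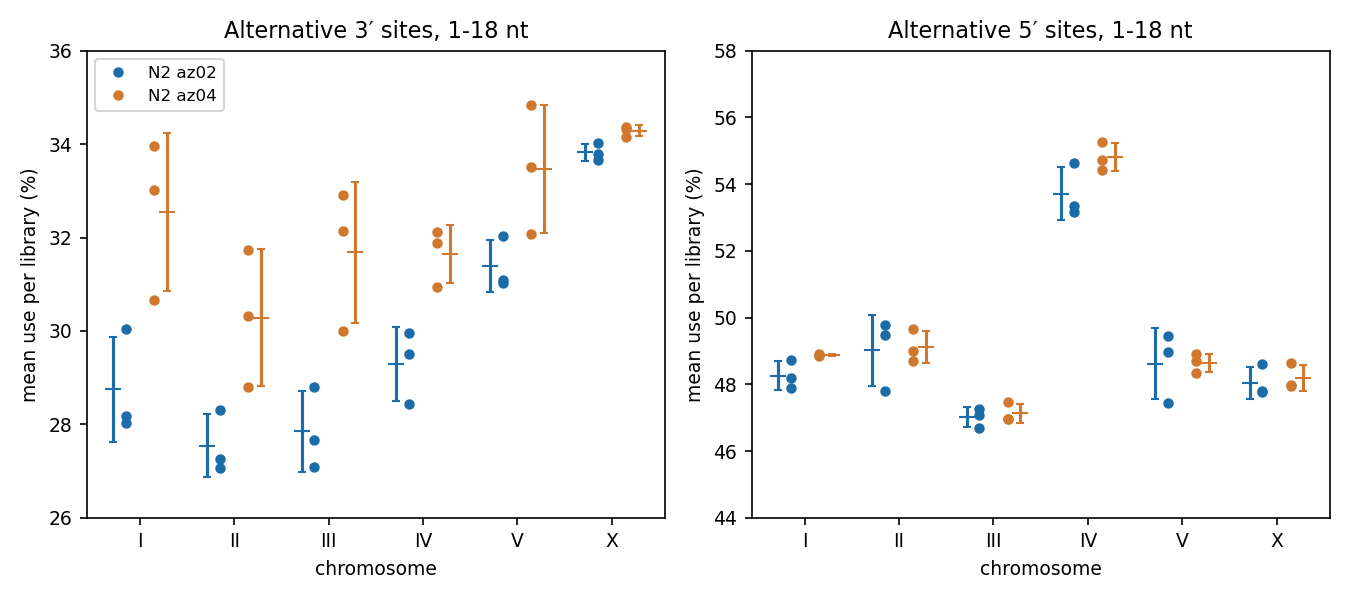
Mean use in each wild-type library (points, y axis in %, not starting at 0) by chromosome for acceptors (left) and donors (right) 1 to 18 nt apart, with the mean ± SD of 3 libraries per set beside them, az02 in blue and az04 in orange. On X the 6 acceptor means lie between 33.7 and 34.4%, while on chromosome I they run from 28.03 to 33.96%.

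Alternative last exons carried the same acceptor pattern in part. Of 276 such events, 154 had acceptors 18 nt or less apart. Of these 154, 109 shared their acceptor pair with an alternative acceptor event and are not separate evidence. Where the included last exon began at the upstream acceptor (88 events), use was 52.7, 54.3 and 54.4% in az02 and 59.9, 55.8 and 58.4% in az04. Where the included exon began at the downstream acceptor (66 events), use was 66.2, 62.5 and 64.5% in az02 and 58.1, 63.0 and 60% in az04. The first group did not overlap and was higher in az04 by 4.2 points, and the second, with az042 above az022, was lower by 4.02 points. Both differences are towards the upstream acceptor in az04, but both groups keep the shared pairs. The events without a shared pair were not compared alone. Last exons with acceptors further apart (122 events) differed by 0.39 points.

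The mean of the other types moved by less than 1 point. First exons differed by 0.01 points (exact permutation p = 1.0), retained introns by 0.33 (p = 0.30, exact), single skipped exons by 0.13 (p = 0.60, exact) and groups of skipped exons by 0.21 (p = 0.50, exact). Mutually exclusive exons differed by 0.70 points and last exons by 0.55, both without overlap of the sets (exact p = 0.10, adjusted 0.30). Skipped exons that shift the frame were also without overlap, at -0.48 points (exact p = 0.10, adjusted 0.30). Among all events of these types, 10% were higher in az04 and 8.65% lower at an unadjusted p below 0.05. By type, the numbers higher and lower were 79 and 64 of skipped exons, 56 and 43 of retained introns, 43 and 51 of first exons, 34 and 35 of last exons, 18 and 7 of skipped exon groups and 11 and 8 of mutually exclusive exons.

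Exon length split the skipped exons further. The 39 microexons of 27 nt or less were included at 36.4, 35.5 and 37.1% in az02 and at 33.6, 33.7 and 33.3% in az04. All az04 libraries were lower, by 2.81 points in the mean. Of these microexons, 24 were lower and 15 higher in az04. At an unadjusted p below 0.05 (limma), 6 were lower (15.4%) and 3 higher (7.69%). Over all skipped exons these shares were 11.2% lower and 13.8% higher. Exons longer than 250 nt (74) were included at 55.4, 57.4 and 55.9% in az02 and at 58.85, 58 and 58.2% in az04. These lay higher in every az04 library, by 2.11 points, with 15 higher (20.3%) and 3 lower (4.05%) at an unadjusted p below 0.05.

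Single events were called changed where limma gave a Benjamini-Hochberg adjusted p below 0.05 and the difference reached 15 points. This held for 12 of 2405 events of the types other than acceptors and donors (0.499%), at 9 loci, 7 with higher and 5 with lower use in az04. It held for 2 of 5098 acceptor and donor events (0.0392%).

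A stretch of chromosome I, minus strand, held 3 of the 12. There, between 14624292 and 14624650, the larvae chose between mutually exclusive exons of 118 nt each. The upstream exon, 14624533 to 14624650, was used at 19.66, 19.82 and 16.53% in az02 and at 52.13, 52.89 and 56.65% in az04. The az04 libraries all lay far above the az02 libraries (difference 35.2 points, SE 1.68, limma adjusted p = 0.0180). Further along the same strand, an exon of 86 nt at 14622647 to 14622732 competed with one of 208 nt at 14622293 to 14622500. The 86 nt exon was used at 6.51, 11.94 and 5.97% in az02 and at 36.91, 40.07 and 39.97% in az04 (difference 30.8 points, SE 2.07, limma adjusted p = 0.0239). A last exon choice at the same acceptors mirrored it and is not separate evidence. The last exon at the downstream acceptor, 14622418 to 14622500, was used at 96.03, 89.45 and 92.91% in az02 and at 68.14, 62.42 and 60.61% in az04 (difference -29.1 points, SE 2.82, limma adjusted p = 0.0404). In all 3 events the sets were far apart, and the exon nearer the start of the transcript was used more in az04.

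A second locus lay on chromosome I, plus strand, in the interval 3421161 to 3424179. Its skipped exon of 150 nt, 3422286 to 3422435, was included at 7.27, 5.06 and 2.9% in az02 and at 30.86, 33.01 and 29.81% in az04 (difference 26.1 points, SE 1.5, limma adjusted p = 0.0180). The form that includes this exon and the next was used at 11.12, 14.74 and 4.97% in az02 and at 36.64, 41.37 and 40.75% in az04 (limma adjusted p = 0.0441). Both events share the exon and are 1 observation seen from different sides. In az02 larvae the exon was nearly always skipped, and in az04 it entered at about 30%.

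Further skipped exons moved by smaller amounts. On chromosome V, plus strand, in the interval 12913976 to 12916490, 3 exons skipped together were included at 38.38, 39.91 and 33.6% in az02 and at 19.36, 22.21 and 21.93% in az04 (difference -16.1 points, SE 2.0, limma adjusted p = 0.0493). A form with 4 exons at the same locus differed by -17.9 points (limma adjusted p = 0.0493). A microexon of 24 nt on chromosome III, minus strand, 6166389 to 6166412, was included at 63.22, 58.91 and 66.36% in az02 and at 45.32, 45.71 and 44.62% in az04 (limma adjusted p = 0.0477). The az04 libraries were close together on the microexon, and all lay below az02. On X, minus strand, an exon of 102 nt at 4519324 to 4519425 was included at 59.54, 58.9 and 56.0% in az02 and at 77.77, 74.16 and 74.79% in az04 (difference 17.4 points, SE 1.48, limma adjusted p = 0.0353).

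Retained introns gave the last 3 of the 12. An intron of 442 nt on X, plus strand, 8998102 to 8998543, was retained at 82.18, 90.57 and 84.39% in az02 and at 57.85, 61.37 and 57.88% in az04 (difference -26.7 points, SE 2.63, limma adjusted p = 0.0404). An intron of 79 nt on X, plus strand, 6845416 to 6845494, was retained at 0.1, 0.1 and 3.57% in az02 and at 16.36, 21.22 and 20.56% in az04 (limma adjusted p = 0.0411). An intron of 53 nt on chromosome II, minus strand, 7753392 to 7753444, read 0.1% in each az02 library and 21.59, 32.5 and 28.57% in az04 (limma adjusted p = 0.0477). The short introns rested on values at the bottom of the scale in az02, while the long one did not.

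The 2 called acceptor and donor events fell in az04. The acceptors lie 27 nt apart on chromosome V, minus strand, in the interval 9159822 to 9160176, where upstream use read 66.67% in each az02 library and 29.63, 33.33 and 24.39% in az04 (difference -37.6 points, SE 2.42, limma adjusted p = 0.0491). The donors lie 36 nt apart on chromosome III, minus strand, in the interval 10982553 to 10985012, where use read the top of the scale in each az02 library and 50, 57.14 and 45.45% in az04 (difference -49.0 points, SE 3.18, limma adjusted p = 0.0491). Identical values in all 3 az02 libraries set the spread of both events there to 0.

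These calls sat close to the threshold, and many were lost when a library was left out. Of the 12, the calls that held numbered 2 without az021, 3 without az022, 7 without az023, 7 without az041, 0 without az042 and 1 without az043. The adjusted p of the lost calls then ran from 0.0517 to 0.150. The 118 nt exon pair held in 5 of the 6 such fits. Of the acceptor and donor calls, 0 held without az021, az022, az023 or az041, 2 without az042 and 1 without az043, with adjusted p of 0.0863 to 0.224 for those lost. No difference changed its sign in these fits.

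The mutant libraries gave a view of the same events in larvae that were not used for the calls. In sacy-1(tn1385), of the az02 code stem, the 118 nt exon was used at 21.7, 26.7 and 27.1%, and in mog-5(az192), of the az04 stem, at 52.2, 56.3 and 52.7%. The 150 nt exon was included at 9.83, 7.6 and 8.51% in sacy-1(tn1385) and at 33.2, 39.6 and 44.6% in mog-5(az192). Each mutant thus lay near the wild-type set of its own stem in these 2 events, but this did not hold for all 12 calls. The X intron of 79 nt was retained at 14.3, 45 and 41.7% in sacy-1(tn1385) and at 52.1, 42.9 and 50% in mog-5(az192). Both mutants thus lay above the wild-type set of their stem there. The 24 nt microexon ranged from 43.7 to 61.3% in sacy-1(tn1385). Of the 12 calls, 11 had the same direction in mog-5(az192) against sacy-1(tn1385), where 54.3% of all events of these types did, and 9 did so without overlap, against 23.7% of all. Of the 2 acceptor and donor calls, 1 had the same direction, against 55.1% of all such events, and 0 were so without overlap, against 12.4%. Genotype and library set cannot be told apart in this comparison. The intron of 53 nt read 0.1% in 1, 25% in another and the top of the scale in the last of the 3 sacy-1(tn1385) libraries, so its level was unsteady within 1 group.

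**Figure D5:**
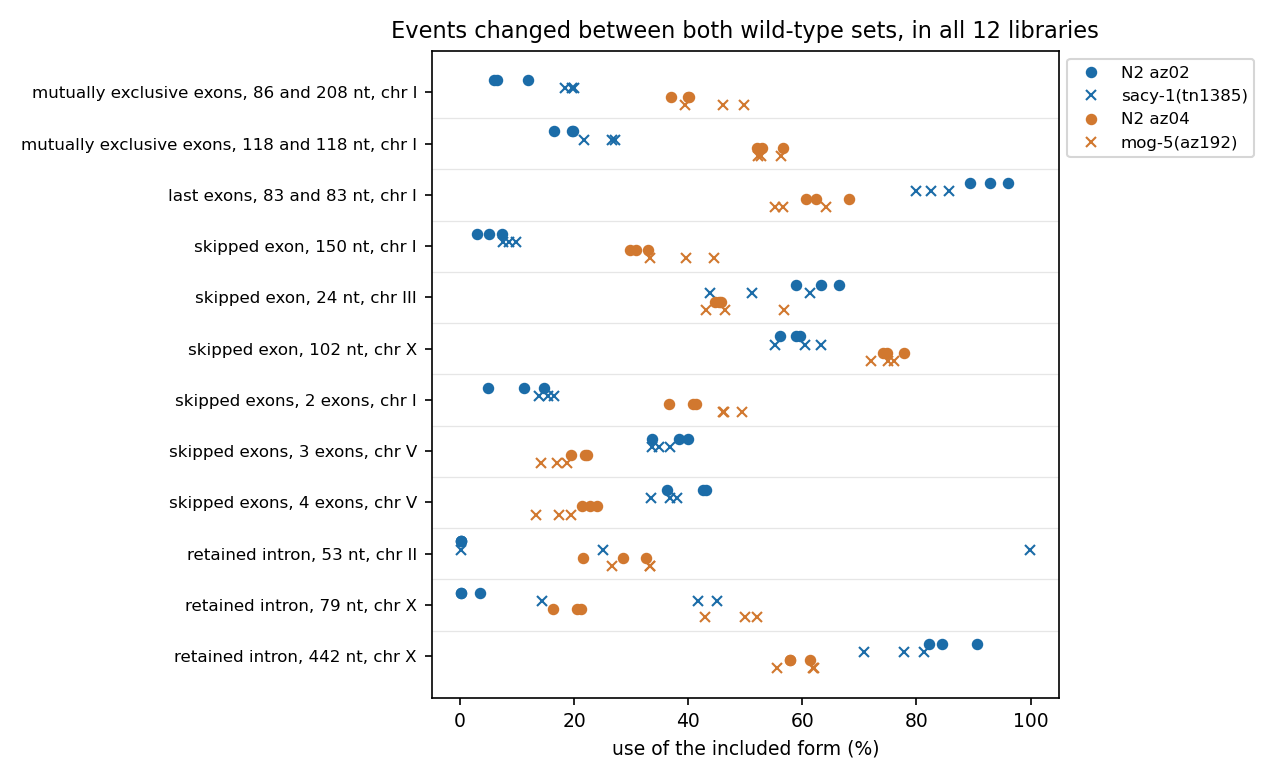
Use of the included form (x axis, %) in each of the 12 libraries for the 12 called events of types other than acceptors and donors, with wild-type libraries as dots, mutants as crosses, the az02 stem in blue and the az04 stem in orange. For the 118 nt exon pair all blue symbols lie at 27.1% or below and all orange symbols at 52.1% or above.

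Some large differences did not pass the adjusted threshold. A fixed number of events per type with the largest difference, among those with an unadjusted p below 0.05 and no overlap, gave 27 events, some of them called above, with 12 higher and 15 lower in az04, and 17 of them held a value at either end of the scale. An acceptor pair 6 nt apart on chromosome III, minus strand, in the interval 4712919 to 4713298, was used upstream at 16.67, 23.53 and 21.05% in az02 and at 53.49, 51.54 and 59.6% in az04 (difference 34.5 points, limma adjusted p = 0.106). Its sets were far apart with no value at the ends of the scale. The 10 acceptor events of that selection were 5 higher and 5 lower in az04. Another pair 6 nt apart (chromosome V, plus strand, interval 16928732 to 16929059) went the other way. It read the top of the scale in az021 and az023, 75% in az022 and 40, 45.45 and 40% in az04 (limma adjusted p = 0.222). On chromosome V, minus strand, acceptors separated by 9 nt in the interval 18966682 to 18967592 gave 16.67, 20 and 42.31% in az02 and 78.18, 57.58 and 60% in az04 (limma adjusted p = 0.239). A pair of mutually exclusive exons on chromosome II, plus strand, of 42 nt (4952484 to 4952525) and 48 nt (4952641 to 4952688), gave 89.13, 81.25 and 77.76% in az02 and 59.57, 62.55 and 62.46% in az04 for the 42 nt exon (limma adjusted p = 0.0625). An intron of 226 nt on chromosome I, minus strand, 4994298 to 4994523, was retained at 6.82, 5.26 and 4.55% in az02 and at 48.68, 34.89 and 23.85% in az04 (limma adjusted p = 0.117). None of the events given here passed the adjusted threshold, although the sets did not overlap in any of them.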

How the data were processed

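Splicing scores were read from 2 deposited event tables per library, one of alternative acceptors and donors built on introns seen in the libraries and one of the other event types built on Ensembl archive 65 transcripts, per the file names. Coordinates are of the ce10 build, per the submitters' processing notes, which also name Bowtie2, STAR and SAMtools. The event caller is not given in the sources used here. Column 6 of each deposited file is a score per form on a scale of 1000, made by the authors, with no read counts. Use was the included score over both scores, in percent. Count tests were therefore not possible, although the design had allowed for them. Events had to be listed in all 6 N2 libraries. Differences were fitted with limma 3.58.1 in R 4.3.3 on percentage points, az04 against az02, with p-values adjusted over all events of the same table (5098 or 2405). A call needed an adjusted p below 0.05 and 15 points. The script was tested on simulated data with known changes of 10, 20 or 40 points. For acceptors and donors it recovered 1 of 66, 21 of 72 and 43 of 62 of these, with 5 false calls. For the other types it recovered 1 of 69, 49 of 70 and 53 of 61, with 2 false calls. Changes of 10 points lie below the 15 points that a call needed. Class means weight events equally and were compared by exact two-sided permutation of 3 against 3 libraries.

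Named events were all called events, those with the largest set difference at an unadjusted p below 0.05 without overlap (10 acceptor, 5 donor and 2 of each other type), the 2 steadiest per type at 40 to 60% use, and the most variable per type, 1 event per locus, and the text gives some of each. The members, classes and lists were chosen with earlier results of these data known. Alternatives tried were the arcsine scale, no minimum difference, no events with a value at either end of the scale (0.1% or 0.1 points below 100%), 1 event per locus, a variance trend, all 12 libraries in 1 fit, a replicate block and leaving out each library. Sequences and gene names were not used here.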

Additional observations from a re-analysis of the deposited data

Results flagged for a closer look

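In 75 sets of 6 wild-type values tested for a single distant library, 5 were flagged. Chance flags about 1 in 20 of sets that were not chosen by their values. That rate does not apply to all sets here, since some events were named for a large spread or set difference. Some classes also overlap, as the exons of a length divisible by 3 are part of all skipped exons. Mean inclusion of skipped exons was 50.6% in az021, where the other 5 libraries lay between 50.97 and 51.1%, the nearest 0.338 points away. For skipped exons of a length divisible by 3 it was 48.9% in az021 and 49.4 to 49.7% in the others, the nearest 0.503 points away. A donor pair 4 nt apart on chromosome II, plus strand, in the interval 13502463 to 13503701, read the top of the scale in az023 and 0.1 to 33.33% in the others, the nearest 66.57 points away. A last exon choice on chromosome II, minus strand, in the interval 12892995 to 12893427, read 0.1% in az022 and 85.71% or more in the others, the nearest 85.61 points away. A retained intron of 45 nt on chromosome II, plus strand, 1022922 to 1022966, read the top of the scale in az021 and 0.1 to 16.9% in the others, the nearest 83 points away.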

How the results depend on the processing

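Acceptor differences between the sets at 1 to 6 and 7 to 18 nt kept their direction under every alternative tried, and so did the 5 contrasts of X with the autosomes. Counts of changed acceptor and donor events were 4 on the arcsine scale, 4 with no minimum difference, 1 without events at the ends of the scale, 1 with a variance trend and 0 to 8 with 1 library left out. For the other types they were 41 with no minimum difference, 28 without events at the ends of the scale, 26 without events always near an end, 42 with all 12 libraries in 1 fit and 0 to 12 with 1 library left out. The fit of all 12 libraries kept 9 of the 12 calls, and 0 of the 2 acceptor and donor calls. Replicate numbers did not pair the samples, since deviations of same-numbered libraries correlated at -0.066 to 0.034 and libraries did not all correlate best with their own number. A limma fit with a replicate block called 0 events in either table, with 459 acceptor and donor events and 377 others at an unadjusted p below 0.05. Where leaving out a library gave 0 calls, 490 (without az041) and 407 (without az042) events had an unadjusted p below 0.05.

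Without events at the ends of the scale, mean use was 39.8% for acceptors (34.1% at 7 to 18 nt, 57.8% from 19 nt), 50.8% for donors (49.6% at 1 to 6 nt), 58.2% for first exons, 52.5% for last exons, 47.5% for exon groups, 51.1% for mutually exclusive exons, 30.6% for retained introns (29.03% under 60 nt, 31.7% from 60 nt) and 45.2% for skipped exons (45.06% in frame, 45.6% out of frame). With 1 event per locus it was 32.6% for acceptors (21.97% at 7 to 18 nt, 58.7% from 19 nt), 50.5% for donors (50.8% at 7 to 18 nt), 64.3% for first exons, 64.99% for exon groups, 55.5% for retained introns (54.1% and 56.7% by the same lengths) and 50.2% for skipped exons (47.9% and 56.8% by frame). Over events listed in all 12 libraries it was 53.1% for retained introns and 55.1% for those from 60 nt.

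The small set differences changed sign under some settings, and the cause was not tested. Without events at the ends of the scale they were -0.0189 points for donors, -0.253 for first exons and -0.0246 for skipped exons. With 1 event per locus first exons gave -0.380, and over events listed in all 12 libraries donors gave -0.00462. The median over events gave 0 for donors, 2.04 for donors from 19 nt, -3.29 for first exons, -0.307 for last exons, -0.737 for retained introns, -1.1 for those under 60 nt, -1.05 for skipped exons and -1.09 for those in frame. With 1 library left out, first exons ran from -0.328 to 0.323, skipped exons from -0.00791 to 0.218 and acceptors from 19 nt from -1.03 to 0.254.

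Without events at the ends of the scale, the mean difference between libraries was 5.96 points within az02, 4.78 within az04 and 7.03 between sets for acceptors and donors, and 5.15 within az02, 3.89 within az04 and 6.22 between sets for the other types. Pairs of libraries differed by at least 5 points in 31.2% of acceptor and donor events within az02, 24.96% within az04 and 33.2% between sets, and in 25.5, 19.8 and 31.0% of the other types. The depth behind each score is unknown, so no interval for counting error can be given.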

Other observations

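Donors 1 to 18 nt apart differed by chromosome and frame in a way that held in all 6 wild-type libraries. Mean use of the donor with the shorter intron was 54.3% ± 0.83 (SD, n = 6) for 168 events on chromosome IV, and 47.1% ± 0.27 for 176 events on chromosome III, the lowest of the 6. In every library chromosome IV stood highest. Donors whose distance keeps the frame (432 events) had a mean use of 55.0% ± 0.37 and those that shift it (730 events) 45.8% ± 0.29, again with the same order in each library. The frame-shifting group mixes unlike distances. It holds the 277 donors at 4 nt, with a mean of 34.2%, and those at 1 and 2 nt, with 76.4 and 65.4%. These are descriptions over events of unequal makeup and were not tested.

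Among alternative first exons, 2 events were chosen for the largest set difference without overlap at an unadjusted p below 0.05 (limma). They differed by -39.8 and 29.2 points, and the donor events chosen in the same way all differed by more. A first exon of 154 nt on chromosome IV, minus strand, 3738778 to 3738931, stood at the top of the scale in all 3 az02 libraries and was used at 42.86, 75 and 62.5% in az04, in place of a first exon of 102 nt (limma adjusted p = 0.115). A first exon of 75 nt on chromosome V, plus strand, 10636001 to 10636075, was used at 25, 0.1 and 0.1% in az02 and at 43.75, 27.27 and 41.67% in az04 (limma adjusted p = 0.202). Neither passed the adjusted threshold, and both held values at an end of the scale.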
